A study of Mus musculus with 6 samples.

Results

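The heat shock proteins and chaperones measured here are 64 genes out of 6146 genes with a single symbol on 6 two-colour BMAP cDNA microarrays of mouse brain. They were chosen by symbol alone: the Hsp families (Hspg2 left out), all Dnaj, Cct, Bag, Pdia and Fkbp genes, and Tcp1, Calr, Canx, Stip1, St13 and Ddit3. By textbook location 37 of them work in the cytosol or nucleus, 7 in the mitochondrion and 13 in the endoplasmic reticulum (ER), and 7 were put in no compartment. The strains were NY1DD, a transgenic mouse model of sickle cell anaemia, with 3 arrays, and wild-type C57BL/6J, with 3 arrays. All mice were males aged 9 weeks. Each array set brain RNA taken 10 min after naloxone, an antagonist of opioid receptors, labelled with Cy5, against brain RNA of the same strain taken 10 min after saline, labelled with Cy3. The sources used here do not give the transgene's promoter or copy number, how many animals stand behind an array, or whether arrays shared saline RNA. P-values therefore measure only the spread between arrays, which may be technical.

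Values are log2 ratios of the channels of an array, centred on the array's median. Naloxone is likely on top of the ratio, since the design text gives the naloxone RNA the experimental dye; if it is the reverse, every sign below turns. Where 3 values stand in a row, they are replicates 1 to 3 of the strain. No array had its dyes swapped, so a dye bias shared by all arrays cannot be told apart from naloxone within a strain. Only a bias common to all arrays cancels in NY1DD minus C57BL/6J. No number in an array's title occurs in both strains. A bias that goes with these numbers would therefore not cancel and cannot be told apart from strain. C57BL/6J replicates 1 and 2 have the same title number, so they may not be independent. A ratio carries no level, so abundance, signal over background and the presence of brain markers cannot be read from these data. Usable probes ranged from 11155 to 11357 on the NY1DD arrays and from 11317 to 11413 on those of C57BL/6J. Arrays resembled each other little: over all features, pairs of NY1DD arrays had Pearson r of 0.0194 to 0.191, pairs of C57BL/6J arrays 0.124 to 0.148, and pairs of unlike strain -0.0701 to 0.178 (a description, since features share their array). Lists of cell type markers showed small medians: neuron markers (12 genes) had mean log2 ratios with a median of 0.07 in NY1DD and 0.03 in C57BL/6J, astrocyte markers (8 genes) -0.13 and 0.02, oligodendrocyte markers (8 genes) 0.16 and 0.06, endothelial markers (8 genes) 0.04 and 0.04, microglia and macrophage markers (4 genes) 0.09 and -0.03, choroid plexus and ependyma markers (3 genes) 0.13 and 0.29, and red cell and blood markers (2 genes) 0.01 and -0.04. No marker passed limma's test in either strain.

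Chaperones bind proteins that are not yet folded or have lost their fold. HSP70 proteins clamp exposed stretches of a client with the help of J proteins, which start their ATPase, and of exchange factors such as the BAG proteins; HSP90 finishes clients such as kinases and steroid receptors, and ring-shaped chaperonins enclose a client in a chamber. Each compartment has its own set, and each set has its own alarm: heat shock factors switch on cytosolic and mitochondrial chaperones through heat shock elements in DNA, while the unfolded protein response switches on ER chaperones through ER stress response elements, and its prolonged form induces Ddit3 (CHOP).

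The promoter letters of some members hold these elements, and the stretches below are given so that the genes compared later can be seen with the element they carry. RefSeq promoter windows (GRCm38.p6, 250 bases before to 50 after a start) were found for 56 of the 64 genes. The ER stress response element, searched as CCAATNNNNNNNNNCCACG on both strands, was found in 4 of these genes (7.14%), namely Hspa5, Hsp90b1, Calr and Canx, all of the ER, against 37 of 27025 genes with a window (0.137%; 39 of 32851 windows, 0.119%, since a gene can have several). The other ER members did not hold these letters in their windows. The heat shock element, searched as GAANNTTCNNGAA or TTCNNGAANNTTC on both strands, which match each other's reverse complement and can overlap, was found in Hspd1, Hspe1, Hsph1 and Dnajb6 (4 genes, 7.14%), against 179 of 27025 genes (0.662%; 198 of 32851 windows, 0.603%). Hspa1b and Dnajb1 had windows without these letters, and Hspa8 and Hsp90aa1 had no window in the table used. Capitals mark the matched element and the sequences run 5′ to 3′ on the gene's strand. Hspa5 is at chr2:34772005-34772063 (plus strand), Hsp90b1 at chr10:86705513-86705571 (minus), Calr at chr8:84847055-84847113 (minus), Canx at chr11:50325780-50325838 (minus) and Hspe1 at chr1:55088053-55088082 (plus).
Hspa5: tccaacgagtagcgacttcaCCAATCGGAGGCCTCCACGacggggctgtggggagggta
Hsp90b1: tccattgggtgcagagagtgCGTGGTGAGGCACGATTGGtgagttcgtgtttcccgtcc
Calr: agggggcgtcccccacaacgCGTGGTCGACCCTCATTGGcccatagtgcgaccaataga
Canx: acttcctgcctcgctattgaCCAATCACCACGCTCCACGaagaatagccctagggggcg
Hspe1: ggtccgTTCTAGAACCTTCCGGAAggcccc
In Hsp90b1 and Calr the printed element reads on the opposite strand, and the Hsp90b1 window holds another match further from the start. The Hspe1 element lies from -89 to -72 of its start; Hspe1 and Hspd1 are neighbours read in opposite directions, and the same element falls from -144 to -127 of an Hspd1 start.

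None of the 64 chaperone genes passed limma's test (Benjamini-Hochberg adjusted over all 9685 features, two-sided, threshold 0.05) in NY1DD, in C57BL/6J, between the strains or in the average of the strains, and neither did any other feature (0% called in each comparison). At an unadjusted p under 0.05 there were 3 members in NY1DD (4.69%) against 809 of all features (8.35%), 2 in C57BL/6J (3.12%) against 671 (6.93%), 0 between the strains (0%) against 436 (4.50%), and 3 in the average (4.69%) against 1043 (10.8%). All measured arrays of a strain had the same sign for 18 members in NY1DD (28.1%, against 29.6% of features) and for 14 in C57BL/6J (21.9%, against 31.7%). These shares lie near or below those of all features. The share with the same sign on all 6 arrays was not counted, for members or for all features. Mean log2 ratios were positive for 37 members and negative for 27 in NY1DD (57.8%, against 47.5% of all features; median 0.05, against -0.02), positive for 36 and negative for 28 in C57BL/6J (56.2%, against 49.9%; median 0.03, against 0.00), and NY1DD was higher for 32 of 64 members (against 48.3% of features; median difference -0.01, against -0.01).

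**Figure D1:**
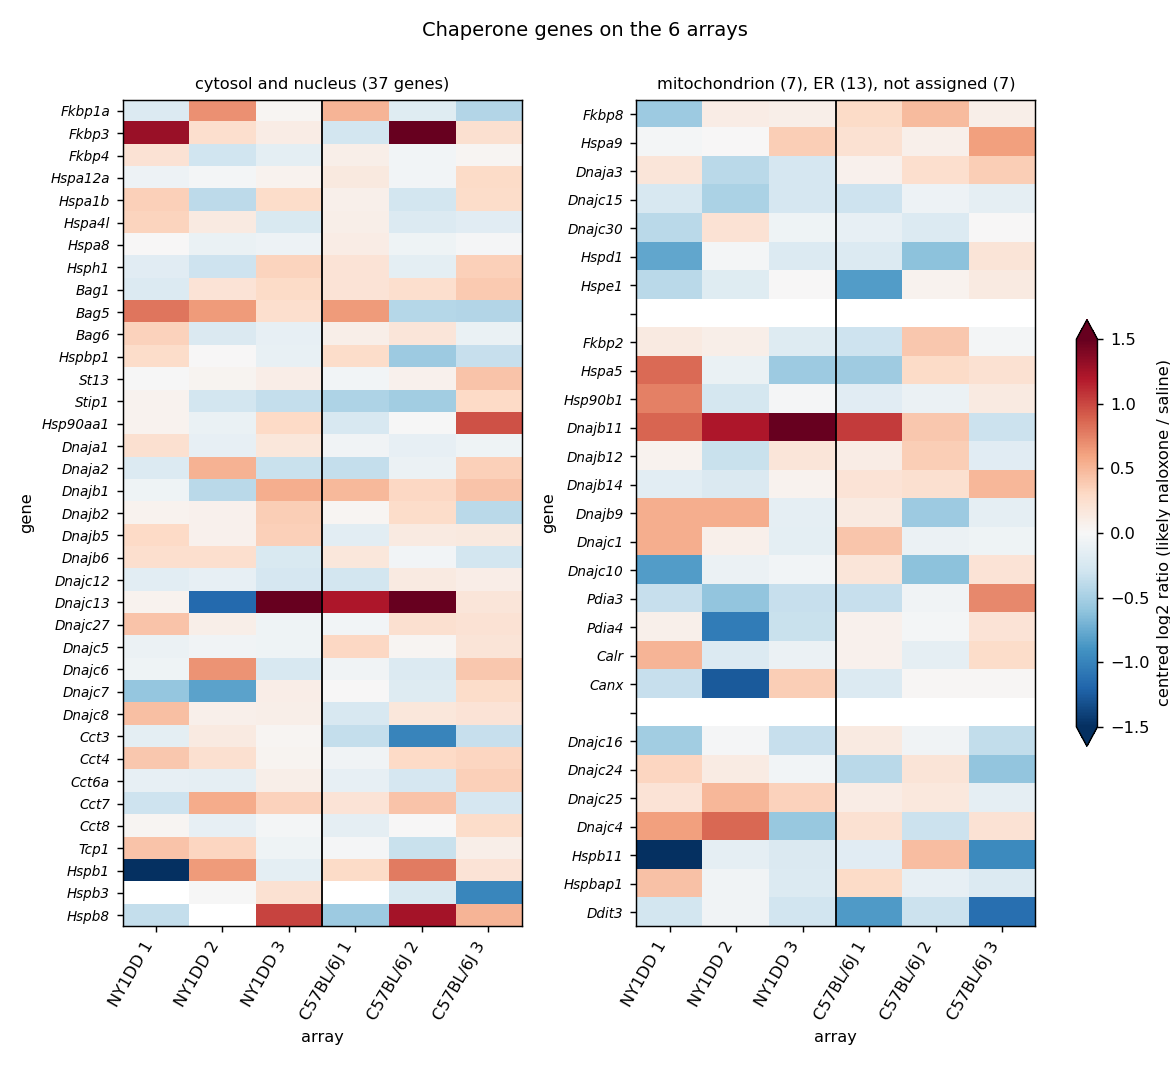
Centred log2 ratios (colour, red above 0 and blue below 0, scale ending at 1.5 either way) of the 64 chaperone genes (rows, in compartments) on the 3 NY1DD and 3 C57BL/6J arrays (columns); white cells are missing values or the gaps between compartments. Most genes are pale on all arrays, and Dnajb11 (positive on 5 of 6 arrays) and Ddit3 (negative on 6 of 6) stand out among the ER and unassigned genes.

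The data limit how large a change could have been missed. The 95% interval of a member's mean, from limma's fit with its shared estimate of the spread, reached a median of 0.42 to either side in each strain, a factor of 1.34, and 0.59 for the difference between strains, a factor of 1.51. It lay inside 1.5-fold either way for 34 members in NY1DD (53.1%, against 42.8% of all features), for 33 in C57BL/6J (51.6%, against 46.4%), and for 7 in the difference between strains (10.9%, against 14.2%). Among the 34 in NY1DD were Hspa8, Hspa9, Calr, Cct4, Cct8, Dnaja1 and St13. For all 34 a mean shift of 1.5-fold either way lay outside the interval. For members not among the 34, the NY1DD interval reached past 1.5-fold on at least 1 side.

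The compartments were then set side by side on each array. Cytosolic and nuclear chaperones had medians of 0.04, 0.02 and 0.05 on NY1DD replicates 1 to 3 and of 0.01, -0.04 and 0.21 on C57BL/6J replicates 1 to 3; the means over arrays were 0.04 ± 0.02 in NY1DD and 0.06 ± 0.13 in C57BL/6J (SD, n = 3 arrays each). In this group 25 of 37 genes had positive means in NY1DD and 23 in C57BL/6J. The 7 mitochondrial chaperones had medians of -0.41, -0.03 and -0.06 in NY1DD against -0.12, 0.05 and 0.13 in C57BL/6J, with means of -0.17 ± 0.21 in NY1DD and 0.02 ± 0.13 in C57BL/6J (SD, n = 3 each). The NY1DD mean was set largely by replicate 1, and the arrays of the strains overlapped. Mean ratios were negative for 6 of 7 mitochondrial genes in NY1DD and for 4 in C57BL/6J. The 13 ER chaperones had medians of 0.14, -0.21 and -0.09 in NY1DD against 0.07, -0.03 and 0.13 in C57BL/6J, giving -0.05 ± 0.18 in NY1DD and 0.06 ± 0.08 in C57BL/6J (SD, n = 3 each), and again overlapped. Their means were positive for 7 of 13 genes in NY1DD and for 8 in C57BL/6J. Spread over the 6 arrays differed more than direction: the median SD of a gene was 0.28 in the cytosolic group, 0.30 in the mitochondrial group, 0.43 in the ER group and 0.33 over all features. Past 1.5-fold lay 9.13% of cytosolic, 9.52% of mitochondrial and 15.4% of ER values, against 15.6% over all features. Over the 6146 genes with 1 symbol, the median SD was 0.32 and the share past 1.5-fold was 14.0%. These medians and counts describe the groups and were not tested.

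**Figure D2:**
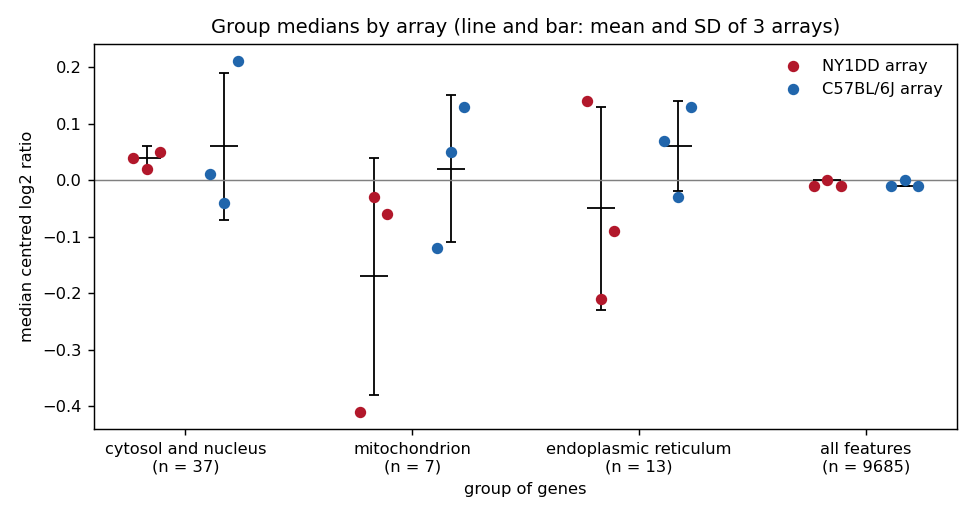
Median centred log2 ratio (vertical axis) of cytosolic and nuclear, mitochondrial and ER chaperones and of all 9685 features, 1 point per array, NY1DD in red left of C57BL/6J in blue, with the mean and SD of 3 arrays as line and bar. The mitochondrial median of NY1DD replicate 1 lies at -0.41 and the other 5 mitochondrial points between -0.12 and 0.13.

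In the cytosol, Hspa8 (Hsc70), the constitutive HSP70 that is abundant in neurons, had log2 ratios of 0.00, -0.10 and -0.08 in NY1DD against 0.11, -0.06 and -0.02 in C57BL/6J. Its SD over 6 arrays, 0.08, was the lowest of the 64 genes, and its means were -0.06 (SE 0.12, 95% interval -0.36 to 0.23) in NY1DD and 0.01 (SE 0.12, -0.28 to 0.30) in C57BL/6J. This average joins a pair of probes that lay on opposite sides of 0: probe 34g7 had means of -0.27 in NY1DD and -0.11 in C57BL/6J, and probe 73b10 had 0.15 in NY1DD and 0.13 in C57BL/6J. The stress-inducible Hspa1b, whose transcript is a standard marker of heat shock and which is nearly identical to its neighbour Hspa1a, had 0.36, -0.39 and 0.27 in NY1DD against 0.08, -0.28 and 0.27 in C57BL/6J, overlapping throughout. The larger HSP70 relative Hsph1, an exchange factor, had means of -0.05 in NY1DD and 0.14 in C57BL/6J, Hspa4l 0.08 and -0.09, and Hspa12a -0.02 and 0.13.

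Hsp90aa1, the inducible cytosolic HSP90, had 0.05, -0.10 and 0.30 in NY1DD against -0.24, -0.01 and 0.95 in C57BL/6J. The C57BL/6J mean of 0.23 (SE 0.24) rested on replicate 3, without which it was -0.13. Among the proteins that connect HSP70 to HSP90 and to the proteasome, Stip1 (Hop), which holds both chaperones at once, had 0.05, -0.28 and -0.36 in NY1DD against -0.46, -0.52 and 0.30 in C57BL/6J. St13 (Hip), which steadies HSP70 bound to its client, was narrow, with -0.01, 0.04 and 0.10 in NY1DD against -0.04, 0.06 and 0.43 in C57BL/6J. Bag5, a BAG protein that acts on HSP70, had 0.80, 0.64 and 0.25 in NY1DD against 0.64, -0.43 and -0.44 in C57BL/6J. All NY1DD arrays of Bag5 were positive, with a mean of 0.56 (SE 0.24, limma adjusted p = 0.588), but C57BL/6J replicate 1 lay among them and the difference of 0.64 (SE 0.34, limma adjusted p = 0.969) did not pass.

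The cytosolic J proteins went both ways. Dnajb1 (Hsp40), a heat-inducible partner of HSP70, had -0.07, -0.40 and 0.55 in NY1DD against 0.49, 0.31 and 0.43 in C57BL/6J; all C57BL/6J arrays were positive, with a mean of 0.41 (SE 0.19, limma adjusted p = 0.767), and NY1DD replicate 3 lay above them. Dnajc7 (Tpr2), which binds HSP70 and HSP90, had -0.58, -0.80 and 0.10 in NY1DD against 0.00, -0.19 and 0.28 in C57BL/6J, with an NY1DD mean of -0.43 (SE 0.20, limma adjusted p = 0.592). The Dnajc7 mean was -0.47 with plate row and column correction (limma adjusted p = 0.506) and -0.24 without NY1DD replicate 2. Dnajc5, cysteine string protein, guards the fusion machinery of synaptic vesicles. It had -0.09, -0.05 and -0.06 in NY1DD against 0.31, 0.03 and 0.19 in C57BL/6J, so the strains did not overlap, but the difference was small (-0.25, SE 0.18, limma adjusted p = 0.969). With plate row and column correction the strains overlapped, with -0.01, -0.12 and 0.11 in NY1DD against 0.37, 0.07 and 0.23 in C57BL/6J. As centred here, it was the only one of the 62 members measured on all arrays with opposite signs in the strains (1.61%, against 2.10% of features). Dnajc6 (auxilin), which helps HSP70 strip clathrin from vesicles, had means of 0.13 in NY1DD and 0.05 in C57BL/6J. The endosomal J protein Dnajc13 had the widest spread of all members, with 0.05, -1.17 and 1.73 in NY1DD against 1.21, 1.93 and 0.18 in C57BL/6J (SD over 6 arrays 1.18).

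The cytosolic chaperonin TRiC, which folds actin and tubulin, builds each of its rings from different subunits, of which Tcp1, Cct3, Cct4, Cct6a, Cct7 and Cct8 were measured. Tcp1 (subunit alpha) had 0.43, 0.32 and -0.07 in NY1DD against -0.02, -0.33 and 0.09 in C57BL/6J. Cct3 (subunit gamma) differed most between the strains by p among all 64 members: it had -0.15, 0.13 and 0.03 in NY1DD against -0.36, -0.99 and -0.34 in C57BL/6J, without overlap. Its difference was 0.57 (SE 0.24, unadjusted p = 0.0506, limma adjusted p = 0.969), and its C57BL/6J mean was -0.56 (SE 0.17, unadjusted p = 0.0127, limma adjusted p = 0.428). Without C57BL/6J replicate 2 the Cct3 difference was 0.35 and the C57BL/6J mean -0.35. The other subunits had C57BL/6J means of -0.09 (Tcp1), 0.19 (Cct4), 0.00 (Cct6a), 0.13 (Cct7) and 0.05 (Cct8). The subunits of the complex therefore did not share the value of Cct3.

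Small heat shock proteins hold unfolded proteins without ATP. Among the families of the symbol rule they had the largest share of values past 1.5-fold, 40.0% of only 15 values from 3 genes. Cryab, a small heat shock protein outside the symbol rule, had 0.20, -0.22 and 0.05 in NY1DD against 0.19, 0.25 and 0.05 in C57BL/6J. Hspb1 (Hsp25) had -2.36, 0.64 and -0.15 in NY1DD against 0.29, 0.78 and 0.21 in C57BL/6J, its low NY1DD mean of -0.62 (SE 0.50) coming from replicate 1 alone. Hspb3 was measured on 2 arrays of each strain, with -0.01 and 0.23 on NY1DD replicates 2 and 3 and -0.23 and -0.98 on C57BL/6J replicates 2 and 3. Its C57BL/6J mean was -0.61 (SE 0.25, limma adjusted p = 0.739), with the value of replicate 1 left out because it stood at the lower limit of the deposited scale. With that value kept, the C57BL/6J mean of Hspb3 was -2.63 (limma adjusted p = 0.801). Hspb8 had -0.36 and 1.01 on NY1DD replicates 1 and 3 and -0.55, 1.25 and 0.51 in C57BL/6J. Among FK506-binding proteins, which twist peptide bonds at proline, Fkbp1a (FKBP12), the cellular receptor of FK506 and rapamycin, had -0.20, 0.68 and 0.03 in NY1DD against 0.51, -0.18 and -0.44 in C57BL/6J. Fkbp4 (FKBP52), a partner of HSP90 in steroid receptor complexes, stayed near 0, with means of -0.07 in NY1DD and 0.03 in C57BL/6J, whereas Fkbp3 had single values of 1.29 on NY1DD replicate 1 and 2.33 on C57BL/6J replicate 2.

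In the mitochondrion, Hspd1 (Hsp60) and Hspe1 (Hsp10), barrel and lid of the matrix chaperonin, share the element printed above. Hspd1 had -0.78, -0.03 and -0.21 in NY1DD against -0.21, -0.61 and 0.19 in C57BL/6J. Hspe1 had -0.41, -0.18 and 0.01 in NY1DD against -0.84, 0.05 and 0.13 in C57BL/6J. Both were lowest within NY1DD on replicate 1 and highest within C57BL/6J on replicate 3, their means were negative in both strains (-0.34 and -0.19 in NY1DD, -0.21 and -0.22 in C57BL/6J), and their 95% intervals held 0. Hspa9 (mortalin), the HSP70 that pulls proteins through the inner membrane, had -0.03, 0.01 and 0.37 in NY1DD against 0.23, 0.08 and 0.62 in C57BL/6J. Its probes gave nearly the same means, 0.17 and 0.07 in NY1DD and 0.30 and 0.31 in C57BL/6J (mean over both probes in C57BL/6J 0.31, SE 0.16, limma adjusted p = 0.821). Dnajc15, a J protein of the inner membrane's import motor, was negative on all 6 arrays, with -0.24, -0.47 and -0.25 in NY1DD and -0.31, -0.08 and -0.13 in C57BL/6J. The sizes were small, with a mean of -0.32 in NY1DD (SE 0.13, unadjusted p = 0.0461, limma adjusted p = 0.588) and of -0.17 in C57BL/6J (SE 0.13, limma adjusted p = 0.938). Dnaja3 (Tid1), the matrix partner of Hspa9, had means of -0.16 in NY1DD and 0.23 in C57BL/6J, and Fkbp8, anchored in the outer membrane, -0.12 and 0.28.

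In the ER, Dnajb11 (ERdj3), a J protein that loads clients onto Hspa5, had the smallest p of all members in NY1DD. It had 0.87, 1.21 and 1.71 in NY1DD against 1.05, 0.41 and -0.32 in C57BL/6J. Its NY1DD mean of 1.26 (SE 0.28, 95% interval 0.61 to 1.91, unadjusted p = 0.00242) did not pass after adjustment (limma adjusted p = 0.489). It was the only member past 1.5-fold on every measured NY1DD array on one side (1 of 64 positive, 1.56%, against 0.382% of features; 0 negative, against 0.589%), and no member was so in C57BL/6J (0 positive, against 0.207%, and 0 negative, against 1.01%). C57BL/6J replicate 1 lay inside the NY1DD range, and the difference of 0.88 (SE 0.39, unadjusted p = 0.0578, limma adjusted p = 0.969) did not pass and was 0.53 without C57BL/6J replicate 3. It rests on 1 probe, in a well with a median of 0.04 on NY1DD replicate 2.

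The chaperones that carry the ER stress response element did not share the value of Dnajb11. Hspa5 (BiP), the ER HSP70 whose transcript is the usual readout of the unfolded protein response, had 0.85, -0.10 and -0.54 in NY1DD against -0.53, 0.29 and 0.23 in C57BL/6J. Hsp90b1 (Grp94), the ER HSP90, had 0.75, -0.26 and -0.02 in NY1DD against -0.17, -0.09 and 0.13 in C57BL/6J. Calr (calreticulin), a lectin that holds sugar-bearing proteins, had 0.51, -0.21 and -0.09 in NY1DD against 0.07, -0.13 and 0.27 in C57BL/6J. These 3 genes were high together on NY1DD replicate 1, between 0.51 and 0.85, and at or below -0.02 on the other NY1DD arrays, so that their NY1DD means were only 0.07 (Hspa5), 0.16 (Hsp90b1) and 0.07 (Calr), each with a 95% interval across 0. Without NY1DD replicate 1 the mean was -0.32 for Hspa5, -0.14 for Hsp90b1 and -0.15 for Calr. Canx (calnexin), the membrane-bound lectin, had -0.34, -1.26 and 0.37 in NY1DD against -0.21, 0.02 and 0.02 in C57BL/6J. The median of the 4 genes with the element was 0.63, -0.24 and -0.06 in NY1DD against -0.19, -0.03 and 0.18 in C57BL/6J, beside 0.05, -0.01 and -0.04 and then 0.08, -0.04 and 0.11 for the 52 members whose window lacked it. For the 4 genes with the heat shock element the medians were -0.29, -0.10 and -0.10 in NY1DD against -0.02, -0.10 and 0.16 in C57BL/6J. The 52 members whose window lacked that element had 0.05, -0.02 and -0.04 in NY1DD against 0.07, -0.04 and 0.11 in C57BL/6J. These medians were not tested.

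**Figure D3:**
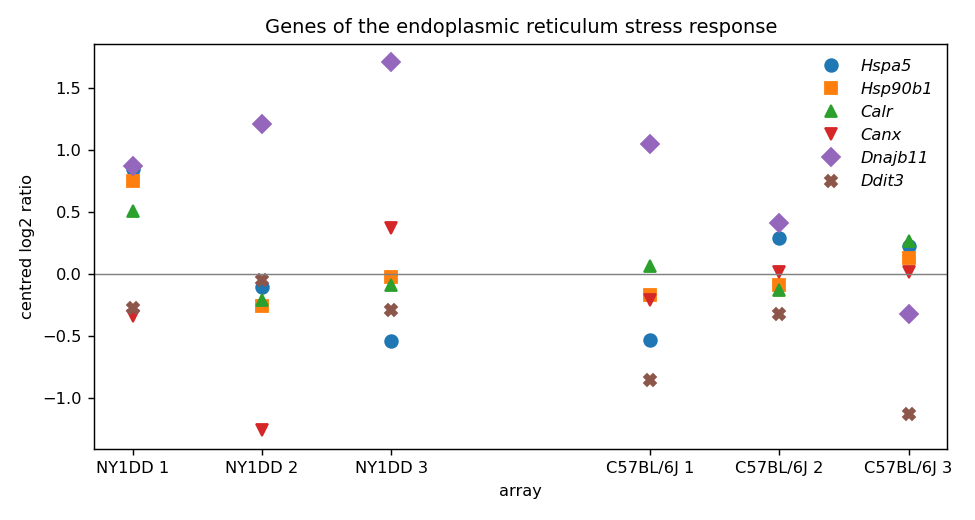
Centred log2 ratio (vertical axis) of 6 genes tied to the ER stress response (symbols) on the 3 NY1DD arrays and then the 3 C57BL/6J arrays. Hspa5, Hsp90b1 and Calr lie between 0.51 and 0.85 on NY1DD replicate 1 only, Dnajb11 lies at 0.87 or higher on all NY1DD arrays, and Ddit3 is below 0 on all 6.

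Of the disulfide isomerases, which make and reshuffle disulfide bonds, Pdia3 and Pdia4 had negative means in NY1DD. Relatives outside the symbol rule went both ways in NY1DD, with means of 0.08 (P4hb), 0.11 (Erp44), -0.10 (Txndc5) and -0.07 (Txndc12). Pdia3 (ERp57), which works with Calr and Canx, had -0.35, -0.59 and -0.35 in NY1DD against -0.35, -0.05 and 0.72 in C57BL/6J, with means of -0.43 (SE 0.21, limma adjusted p = 0.600) in NY1DD and 0.11 (SE 0.21, limma adjusted p = 0.985) in C57BL/6J. On NY1DD replicate 1 only probe 24f1 counted, since probe 83g1 stood at the lower limit there; with that value kept the NY1DD mean was -1.48 (limma adjusted p = 0.626), and without NY1DD replicate 3 it was -0.19. Pdia4 (ERp72) had 0.08, -1.05 and -0.33 in NY1DD against 0.07, -0.03 and 0.20 in C57BL/6J. Its NY1DD replicate 2 value joins -2.22 from probe 114g12, in a well whose median was -0.87 on that array, with 0.12 from probe 80e3, in a well at 0.17. Canx showed the same kind of split, with -2.25 from probe 101h5 (well median -0.57) and -0.26 from probe 89a2 (well median 0.00) on NY1DD replicate 2. On NY1DD replicate 3 the Canx probes split the other way, with 1.27 from probe 101h5 and -0.53 from probe 89a2. Probe 101h5 gave no value on NY1DD replicate 1 or C57BL/6J replicate 2. Probe 89a2 alone had -0.34, -0.26 and -0.53 in NY1DD. The part of plate position in these values was not tested beyond the plate row and column correction, under which no member passed.

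**Figure D4:**
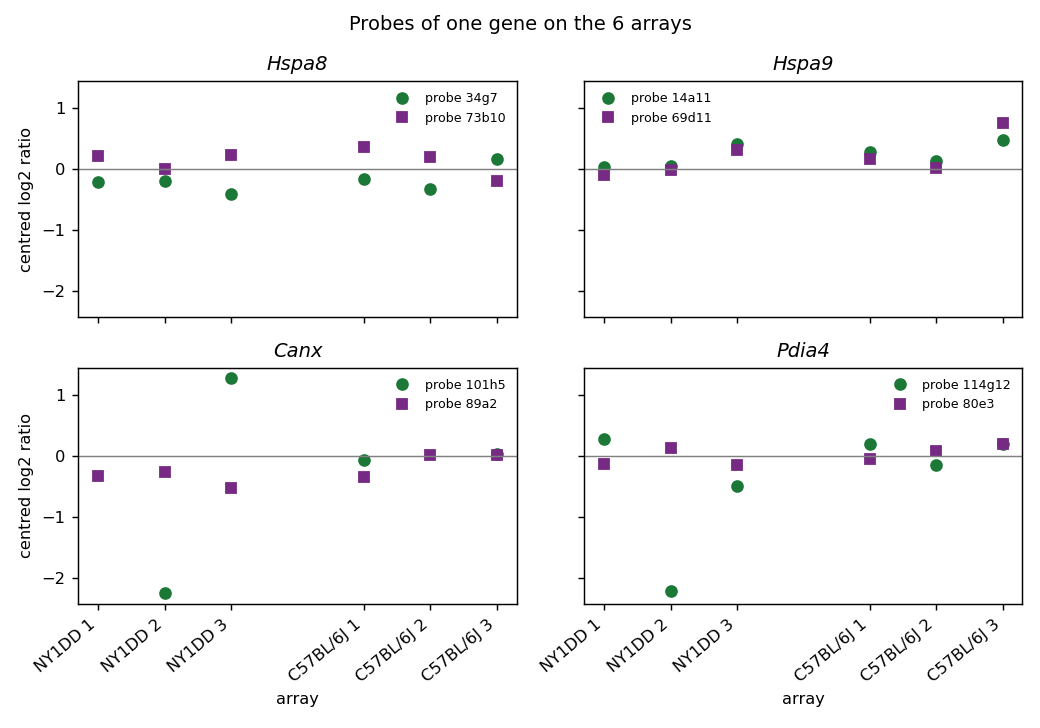
Centred log2 ratio (vertical axes) of each probe of Hspa8, Hspa9, Canx and Pdia4 on the 3 NY1DD and 3 C57BL/6J arrays (horizontal axes); circles and squares are different probes of a gene. The Hspa9 probes lie close together on every array, the Hspa8 probes lie on opposite sides of 0 on most arrays, and 1 probe each of Canx and Pdia4 falls below -2 on NY1DD replicate 2.

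Probe agreement bears on all of these values. Of the 64 genes, 45 had 1 probe and 19 had several. Among the 19, all probe means of a gene had the same sign for 13 in NY1DD and for 10 in C57BL/6J, and the median gap between the highest and the lowest probe mean of a gene was 0.22 in NY1DD and 0.19 in C57BL/6J. Dnajb14, an ER membrane J protein, had -0.16, -0.22 and 0.05 in NY1DD against 0.21, 0.24 and 0.50 in C57BL/6J, without overlap (difference -0.43, SE 0.19, limma adjusted p = 0.969). Its probe means were -0.16 (probe 43h10) and -0.05 (probe 52b5) in NY1DD and 0.55 and 0.09 in C57BL/6J. The strains overlapped on probe 52b5, with -0.56, 0.23 and 0.18 in NY1DD against 0.07, -0.11 and 0.31 in C57BL/6J. They did not overlap on probe 43h10.

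Ddit3 (CHOP), a transcription factor induced by prolonged ER stress that promotes cell death, had the smallest p of all members in C57BL/6J. It had -0.27, -0.05 and -0.29 in NY1DD against -0.85, -0.32 and -1.13 in C57BL/6J. All 6 arrays were negative, and the strains did not overlap, NY1DD replicate 3 and C57BL/6J replicate 2 lying closest. The means were -0.20 (SE 0.18, limma adjusted p = 0.745) in NY1DD and -0.77 (SE 0.18, 95% interval -1.19 to -0.35, unadjusted p = 0.00344, limma adjusted p = 0.251) in C57BL/6J, and the difference was 0.56 (SE 0.25, unadjusted p = 0.0605, limma adjusted p = 0.969). In the average of the strains Ddit3 had -0.49 (SE 0.13, limma adjusted p = 0.229) and Dnajb11 0.82 (SE 0.19, limma adjusted p = 0.202), the smallest adjusted p of a member in that comparison. Dnajc25, a J protein put in no compartment here, had 0.20, 0.50 and 0.34 in NY1DD against 0.11, 0.16 and -0.13 in C57BL/6J, without overlap, with an NY1DD mean of 0.35 (SE 0.14, limma adjusted p = 0.580), which was 0.20 with plate row and column correction (limma adjusted p = 0.680). Altogether the strains' arrays did not overlap for 5 of the 62 members measured on all 6 arrays (8.06%, against 9.41% of features): NY1DD was higher for Cct3, Ddit3 and Dnajc25 (4.84%, against 5.21%) and lower for Dnajb14 and Dnajc5 (3.23%, against 4.20%).

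**Figure D5:**
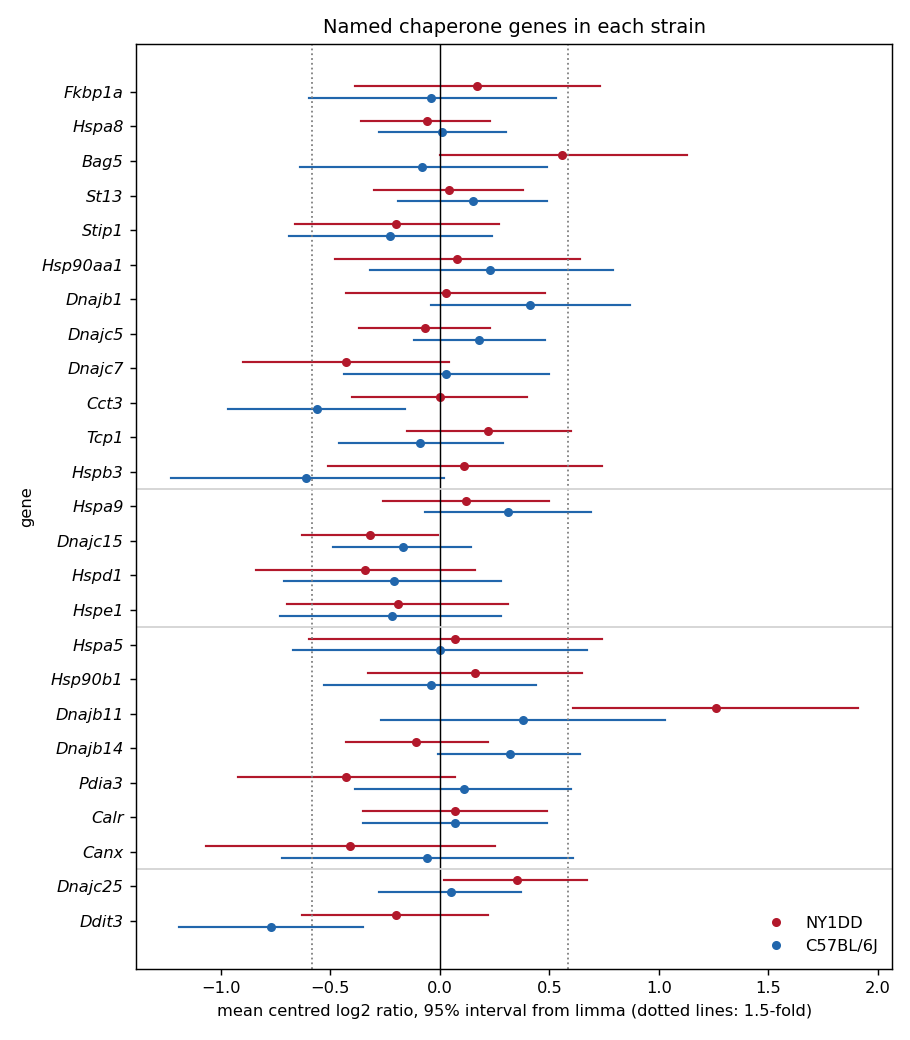
Mean centred log2 ratio with its 95% interval from limma (horizontal axis, dotted lines at 1.5-fold) of the named chaperone genes, NY1DD in red above C57BL/6J in blue, grouped as cytosol and nucleus, mitochondrion, ER and not assigned from top to bottom. Most intervals hold 0; those of Dnajb11 in NY1DD and of Ddit3 and Cct3 in C57BL/6J lie farthest from it, and none of these genes passed after adjustment.

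Folding genes outside the symbol rule were taken from fixed lists. Of 26 listed cytosolic factors 14 were measured, of 16 mitochondrial ones 9 and of 37 ER ones 24, and 0 passed in any comparison. Cytosolic factors had mean log2 ratios with a median of 0.03 in NY1DD and 0.04 in C57BL/6J (8 and 9 of 14 positive), mitochondrial factors -0.02 and -0.01 (4 and 3 of 9 positive), and ER factors -0.08 and 0.00 (7 and 13 of 24 positive). Among the ER factors, Uggt1, which marks misfolded glycoproteins for another round with Calr and Canx, had -0.19, -0.41 and -0.06 in NY1DD against -0.78, -0.32 and -0.96 in C57BL/6J (C57BL/6J mean -0.69, SE 0.17, limma adjusted p = 0.274). Hyou1 (Grp170), an exchange factor for Hspa5, had 0.24, 0.33 and -0.68 in NY1DD against 0.66, 2.75 and 0.70 in C57BL/6J (C57BL/6J mean 1.37, SE 0.42, limma adjusted p = 0.436). Sec63, the J protein of the translocation channel, was negative on all NY1DD arrays, with -0.34, -0.46 and -0.44, and had 0.02, -0.37 and -0.25 in C57BL/6J (NY1DD mean -0.42, SE 0.14, limma adjusted p = 0.541). Sec62 was positive on all 6 arrays, with 0.17, 0.02 and 0.22 in NY1DD against 0.17, 0.51 and 0.41 in C57BL/6J. Its C57BL/6J mean was 0.36 (SE 0.14, limma adjusted p = 0.629). Xbp1, the transcription factor that drives the unfolded protein response, had -1.01, -0.68 and 0.30 in NY1DD against -0.03, 0.26 and -0.21 in C57BL/6J. Ahsa1, which speeds the ATPase of HSP90, had -0.36, -1.89 and -0.29 in NY1DD against -0.12, -0.09 and -0.38 in C57BL/6J.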

How the data were processed

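Brain total RNA was measured on 6 two-colour cDNA arrays, 3 of NY1DD and 3 of C57BL/6J mice. The deposited values are natural log ratios of the channels: the lowest value on every array is the natural log of 0.01. The sources used here do not give the authors' normalisation, background correction, spot filter or software, and intensities were not used; the precision is limited by the number of arrays and differs with the spread of each gene.

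Of 11532 spots, 30 control spots were left out. Values were converted to log2, those at the lower limit (2 among the members' probes) were set to missing, probes with fewer than 2 values in a strain were dropped, arrays were centred on their medians, and 11340 probes were averaged by single symbol into 9685 features. With limma 3.58.1 in R 4.3.3, the 6 arrays were fitted together with 1 mean for each strain (4 residual degrees of freedom, prior 3.13). Benjamini-Hochberg adjustment was over all features, with a threshold of 0.05. The code of the fit was run on simulated independent arrays without plate, dye or shared RNA effects. That run cannot show how such effects alter the p-values here. SE and 95% intervals come from this fit, and SD is the spread between arrays.

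The members, lists and tests were chosen with earlier results of these data known. Named members are 17 measured genes taken for their role, the 5 with the smallest p in each comparison, any past 1.5-fold on every array of a strain, and up to 5 whose strains do not overlap; Hspa1b and members given for contrast within a family were added after their values were seen. Xbp1, Ahsa1, Uggt1, Hyou1, Clpx, Sec62 and Sec63 were among the smallest p of the other folding factors. Gene symbols are those of the platform annotation, and 64 of 64 members matched RefSeq; cDNA probes of close relatives, such as Hspa1b and Hspa1a, can share signal. Protein sequences were not used here. Replicate numbers did not pair arrays across strains (correlations of deviations -0.0666, 0.0508 and 0.0197).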

Additional observations from a re-analysis of the deposited data

Results flagged for a closer look

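Dnajc5, cysteine string protein, was below 0 on every NY1DD array (-0.09, -0.05 and -0.06) and above 0 on every C57BL/6J array (0.31, 0.03 and 0.19), with NY1DD minus C57BL/6J at -0.25. Limma's test of that difference did not pass (SE 0.18, unadjusted p = 0.212, limma adjusted p = 0.969). With arrays not centred, NY1DD replicate 2 was at 0.00 and 2 of 3 NY1DD arrays were below 0 (NY1DD mean -0.04). With plate row and column correction 2 of 3 were below 0 as well, replicate 3 being at 0.11 (NY1DD mean -0.01). Such opposite signs occurred in 1 of 62 members measured on all 6 arrays (1.61%) and in 193 of 9175 features (2.10%). With 3 arrays a strain, single arrays were not tested for standing apart.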

How the results depend on the processing

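Under 18 alternatives, 0 members passed in NY1DD, C57BL/6J, their difference or their average wherever these were fitted; the smallest limma adjusted p of any member was 0.119, for C57BL/6J with arrays scaled to one spread. Leaving out 1 array at a time gave counts of 0 to 0 and smallest adjusted p from 0.207 to 1.00 over the 4 comparisons. With a replicate block 0 passed as well (smallest limma adjusted p 0.522 in NY1DD, 0.306 in C57BL/6J, 0.945 between strains and 0.282 in the average). The replicate block enters only the fit, so it could not change the group medians and says nothing about them. Of the group medians, the cytosolic NY1DD one moved past 1 SD, to 0.07, when arrays were not centred. Plate correction, the rule on missing values and the choice of 1 probe per gene left the other medians within 1 SD. Of the 49 named values, 16 turned sign under some setting, all of them means of 0.23 or smaller in size. The 1 SD rule was applied only to values named for role alone, and 5 of these moved past it. With 1 probe per gene, Hspa8 moved to -0.27 in NY1DD and -0.11 in C57BL/6J. Pdia3 moved in NY1DD to -1.48 with limit values kept and to -0.19 without NY1DD replicate 3. Dnajc5 moved in NY1DD to -0.04 with arrays not centred and to -0.01 with plate correction. St13 moved to 0.14 in NY1DD with plate correction. Values named by p or by lack of overlap were compared by sign and adjusted p only. Among them, the C57BL/6J mean of Hspb3 went from -0.61 to -2.63 with limit values kept. That of Dnajb14 went from 0.32 to 0.55 with 1 probe per gene, and that of Dnajb1 from 0.41 to 0.29 with plate correction. A random block on the number in the sample titles could not be estimated and was not run; averaging C57BL/6J replicates 1 and 2, which share it, was chosen after seeing the data and gave 0 members.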
